A study of Mus musculus with 6 samples.

Results

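The genes described here are 32 mouse genes of protein folding, export, degradation and stress sensing in the endoplasmic reticulum (ER). They were chosen by symbol from a fixed list, not by a cutoff on measured values, but with earlier results of these data known. All 32 had a row among the 56691 gene rows, and 31 were abundant enough to be tested, of 14856 tested genes in all. Derl3 was the exception. Transcripts were measured by paired-end RNA sequencing of total RNA from macrophages grown out of the marrow of 3 mice, called a, b and c. At day 6 of culture, cells of each mouse received 2 µM thiothixene, an antipsychotic drug known as a dopamine receptor blocker, or the solvent DMSO for 24 h. This gave 3 thiothixene libraries and 3 DMSO libraries, and no untreated cells or cells given a known inducer of ER stress are among them. The labels name no genotype or transgene, and no strain, age or sex of the mice is given in the sources used here.

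Proteins that a cell secretes or places in its membranes enter the ER through the Sec61 channel, fold there with the help of chaperones, lectins and disulfide isomerases, and leave in COPII vesicles. Chains that fail to fold are pulled back into the cytosol and destroyed by the proteasome, a route called ER-associated degradation. When unfolded chains build up, the membrane sensors IRE1, PERK and ATF6 start the unfolded protein response, in which the transcription factors XBP1 and ATF6 raise many of the genes listed here. Macrophages secrete lysozyme, cytokines and complement factors and keep many receptors at their surface, so they use this machinery in the resting state.

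Many of these genes share a promoter motif, the ER stress response element (ERSE), which is bound by NF-Y at CCAAT and by ATF6 or XBP1 at CCACG. Promoter windows from RefSeq (GRCm38.p6, 250 bases before to 50 bases after the start) were found for 26 of the 32 genes. They were searched on both strands for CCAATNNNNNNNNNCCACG. The motif was in 9 of the 26 windows (34.6%), those of Hspa5, Hsp90b1, Dnajc3, Creld2, Pdia6, Calr, Canx, Syvn1 and Derl3, and in 37 of 27025 windows of all genes (0.137%). ATTGGNCCACG, known as ERSE-II, was in 2 windows (7.69%), those of Dnajb11 and Herpud1, and in 0.0444% of all windows. TGACGTGG, a site that XBP1 and ATF6 bind, was in 1 window (3.85%), that of Sec24d, and in 0.714% of all windows. The parts of the ERSE are common, as CCAAT was in 80.8% of the members' windows and 41.1% of all windows, and CCACG in 84.6% of the members' and 35.5% of all windows. The 250 bases before the start of Hspa5 (chr2:34771840-34772089, plus strand) are shown because Hspa5 is the standard reporter of the response. Shorter windows are shown for Hsp90b1, which holds 2 copies (the copy farther from the start at chr10:86705618-86705676, minus strand, and the nearer one at chr10:86705513-86705571, minus strand), Calr (chr8:84847055-84847113, minus strand), Pdia6 (chr12:17266471-17266529, plus strand), Creld2 (chr15:88819500-88819558, plus strand), Syvn1 (chr19:6046512-6046570, plus strand), Herpud1 (chr8:94386357-94386407, plus strand) and Sec24d (chr3:123267450-123267495, plus strand). All run 5′ to 3′ on the strand of the gene, and capitals mark the motif letters, which in Calr, Creld2 and the nearer Hsp90b1 copy lie on the opposite strand and so read CGTGG before ATTGG.
Hspa5: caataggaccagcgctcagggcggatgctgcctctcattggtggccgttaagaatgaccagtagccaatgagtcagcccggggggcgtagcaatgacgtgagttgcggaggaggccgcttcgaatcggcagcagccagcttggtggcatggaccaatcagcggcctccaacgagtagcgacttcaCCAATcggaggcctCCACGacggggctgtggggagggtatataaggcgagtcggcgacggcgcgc
Hsp90b1, farther copy: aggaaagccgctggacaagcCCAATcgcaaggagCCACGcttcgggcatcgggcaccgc
Hsp90b1, nearer copy: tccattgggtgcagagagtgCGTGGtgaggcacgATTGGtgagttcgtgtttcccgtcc
Calr: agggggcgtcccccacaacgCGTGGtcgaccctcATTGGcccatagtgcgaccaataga
Pdia6: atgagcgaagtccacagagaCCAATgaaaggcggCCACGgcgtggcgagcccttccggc
Creld2: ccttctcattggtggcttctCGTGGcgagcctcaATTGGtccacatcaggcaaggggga
Syvn1: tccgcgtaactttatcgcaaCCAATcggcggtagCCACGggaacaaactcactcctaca
Herpud1: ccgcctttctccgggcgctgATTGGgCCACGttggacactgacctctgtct
Sec24d: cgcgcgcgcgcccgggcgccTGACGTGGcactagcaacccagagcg
In Hspa5 the motif ran from -65 to -47, counted from the start. A match describes these letters and is not evidence of binding.

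None of the 31 tested ER genes passed the test between thiothixene and DMSO. In edgeR's quasi-likelihood test, 0 genes passed an adjusted p of 0.05, members or others (0% of tested genes), and each member had an adjusted p of 1. At an unadjusted p under 0.05 there were 0 members, beside 256 of all tested genes (1.72%). Fold changes are log2 ratios of thiothixene over DMSO. They lay above 0 for 13 members (41.9%) and below 0 for 18, with a median of -0.05, and all tested genes had 45.3% above 0 and a median of -0.04. The members ranged from -0.40 (Dnajb9) to 0.36 (Hyou1), and all 31 lay within 0.5 of 0. Their standard errors ranged from 0.25 to 0.75. For 20 members the 95% interval lay within a doubling or a fall by 50% (log2 of -1 to 1), and for 11 it passed one of these bounds. The 3 thiothixene levels were never all above the 3 DMSO levels (0 members, beside 3.88% of tested genes) and never all below them (0 members, beside 2.77%). The plot of estimates and intervals shows every interval crossing 0.

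**Figure D1:**
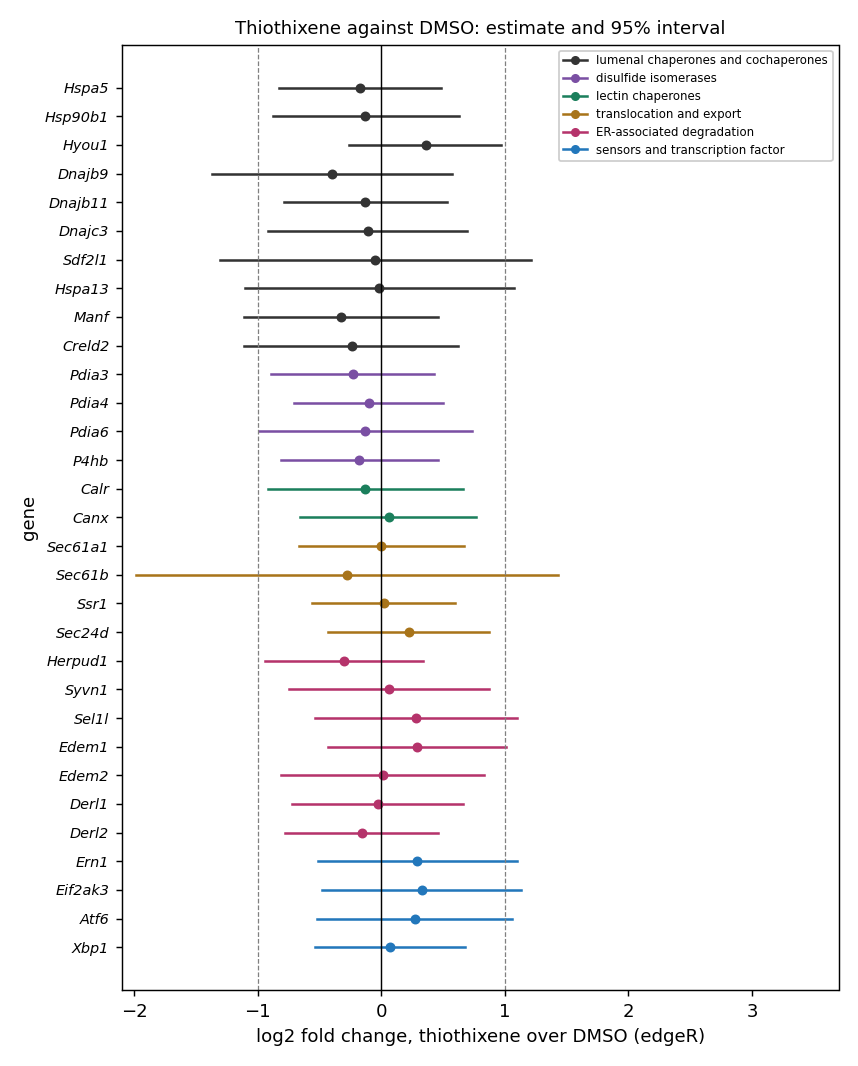
Log2 fold change of each tested ER gene, thiothixene over DMSO, from edgeR (points, 3 libraries a group) with its 95% interval (bars), coloured by role; dashed lines mark -1 and 1. Every interval crosses 0, the widest is that of Sec61b (-1.99 to 1.43) and the narrowest that of Ssr1 (-0.56 to 0.60).

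Libraries of the same treatment were not equally alike. The thiothixene libraries for mice a, b and c held gene counts of 20264090, 18548095 and 20091492, and the DMSO libraries 21327185, 10472349 and 22297520. Levels are given as CPM, counts scaled to the size of each library after TMM normalization. Across genes, which are not independent replicates, log2 CPM correlated at 0.981 between mice b and c under thiothixene but at 0.825 between the same mice under DMSO. Thiothixene of mice b and c and DMSO of mouse a correlated with each other at 0.972 to 0.981. With these, DMSO of mouse b and of mouse c correlated at 0.905 to 0.921, and thiothixene of mouse a, which lay between, at 0.949 to 0.958. The last 3 libraries are said below to stand apart, thiothixene of mouse a the least. Macrophage markers summed to 9257 to 11086 CPM under thiothixene and 9809 to 17220 CPM under DMSO, led by Lyz2, while Itgam had 1 count in all. Neutrophil markers summed to 334 to 394 CPM under thiothixene and 365 to 848 CPM under DMSO, the highest in mouse b. The 8 markers of B and plasma cells, the second of which are rich in ER, summed to 10.1 to 22.5 CPM under thiothixene and 10.2 to 22.6 CPM under DMSO, and Ms4a1, Mzb1 and Pou2af1 had 0 counts in all 6 libraries. Stromal markers summed to 55.3 to 290 CPM under thiothixene and 95.5 to 164 CPM under DMSO, with Lum at 0. Dendritic cell markers summed to 0.937 to 1.34 CPM under thiothixene and 0.67 to 1.07 CPM under DMSO, and erythroid markers to at most 0.0537 CPM under thiothixene and 1.12 CPM under DMSO. The part of these cell types in the results was not tested. In such bulk samples fewer cells of a type and less RNA per cell cannot be told apart.

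Together the 32 genes took 0.909%, 0.845% and 0.844% of gene counts for mice a, b and c under thiothixene, and 0.758%, 0.841% and 1.03% under DMSO. The means were 0.866 ± 0.0372% under thiothixene and 0.876 ± 0.139% under DMSO (SD, n = 3 each). The thiothixene libraries thus lay inside the range of the DMSO libraries. Per kilobase of exon, the lectin chaperone gene Calr stood first with a mean of 508 CPM per kilobase over the 6 libraries. Hspa5 (259), Pdia3 (258), Hsp90b1 (222) and P4hb (213) followed, in CPM per kilobase, with differences smaller than the spread between libraries, as Hspa5 ran from 204 to 336 and P4hb from 169 to 271. Canx stood at 150, Pdia6 at 84.5 and Sdf2l1 at 82.2 CPM per kilobase. At the low end were the sensor genes Ern1 at 9.01 and Eif2ak3 at 5.82 CPM per kilobase, with Hspa13 between them at 8.02, and Derl3 came last at 0.157. Per kilobase, transcripts of the main chaperones and isomerases thus stood far above those of these sensors in both groups.

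**Figure D2:**
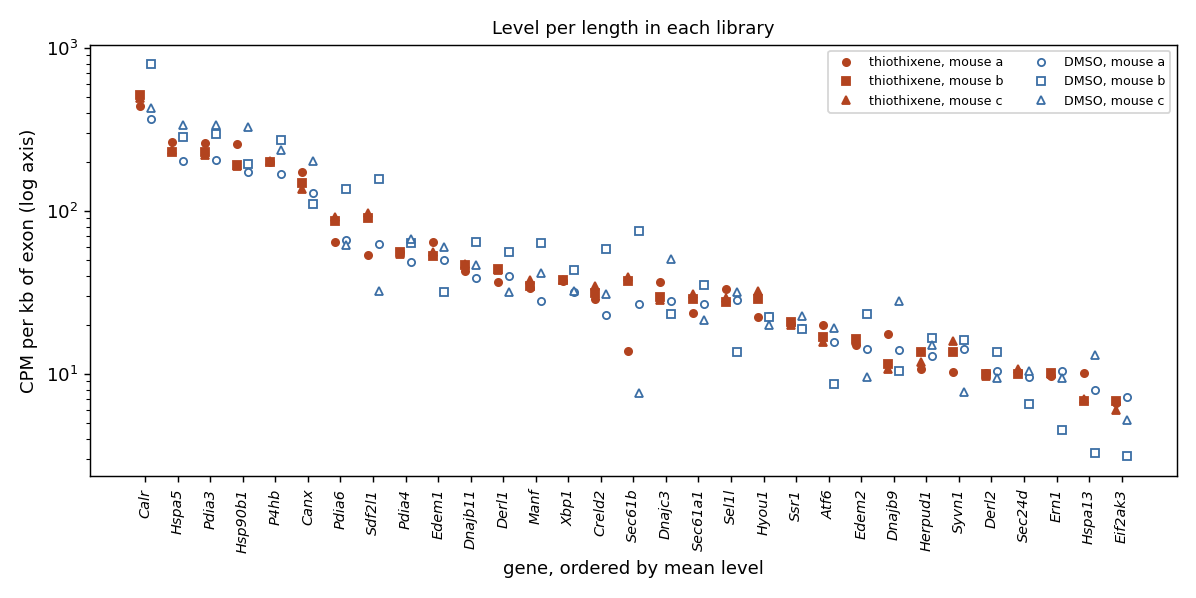
Level of each tested ER gene in CPM per kilobase of exon (log axis), 1 point per library, thiothixene filled and left, DMSO open and right, ordered by the mean over 6 libraries. Thiothixene points lie close together inside a wider spread of DMSO points for most genes, from Calr at a mean of 508 down to Eif2ak3 at 5.82.

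The lumenal chaperones and their partners did not pass the test in either direction. Of 10 genes, 1 lay above 0 and 9 below, with a median log2 fold change of -0.13. This split did not hold without DMSO of mouse b (5 above 0, median -0.062) or without DMSO of mouse c (5 above 0, median 0.06). Nor did it hold with a quality weight per library in limma-voom (8 above 0) or without the 3 libraries that stand apart (8 above 0). Hspa5 (ENSMUSG00000026864.14) encodes BiP, the Hsp70 of the ER lumen that also holds the sensors inactive. It measured 1122, 973 and 994 CPM for mice a, b and c under thiothixene, and 862, 1201 and 1422 CPM under DMSO. The DMSO libraries held both the lowest and the highest value. The means were 1030 ± 80.9 CPM under thiothixene and 1162 ± 282 CPM under DMSO (SD, n = 3 each), a log2 fold change of -0.17 (SE 0.29). Its 95% interval ran from -0.83 to 0.48. Hsp90b1, the ER form of Hsp90, measured 1041, 773 and 758 CPM under thiothixene and 703, 786 and 1317 CPM under DMSO (log2 fold change -0.13, SE 0.33). The groups overlapped for both genes, and the DMSO library of mouse c was the highest in each.

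Hyou1, a large Hsp70 relative that exchanges nucleotide on BiP, had the largest positive estimate. Its levels were 162, 209 and 232 CPM for mice a, b and c under thiothixene, and 163, 162 and 145 CPM under DMSO. Mouse a showed no gap, and mice b and c had the higher value under thiothixene. The means were 201 ± 35.7 CPM under thiothixene and 157 ± 10.1 CPM under DMSO (log2 fold change 0.36, SE 0.27, adjusted p 1). Its interval ran from -0.26 to 0.97, and the estimate lay between 0.25 and 0.50 when single libraries were left out. Dnajb9, which encodes the BiP cochaperone ERdj4 and is a direct XBP1 target, had the lowest estimate. It measured 44.5, 29.4 and 27.2 CPM under thiothixene and 35.6, 26.4 and 71.0 CPM under DMSO (-0.40, SE 0.42). The DMSO library of mouse c alone lay above all 3 thiothixene libraries. Without that library the estimate was 0.12, on the other side of 0. Dnajc3 (p58IPK, an inhibitor of PERK) was likewise highest in DMSO of mouse c and lowest in DMSO of mouse b, at 188, 152 and 146 CPM under thiothixene and 143, 120 and 261 CPM under DMSO.

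Sdf2l1, a partner of BiP and Dnajb11, and Hspa13, a microsomal Hsp70, had nearly the same mean in both groups but a wide spread under DMSO. Sdf2l1 measured 59.7, 100 and 108 CPM for mice a, b and c under thiothixene, and 68.9, 174 and 35.6 CPM under DMSO (log2 fold change -0.05, SE 0.55). Hspa13 measured 69.5, 46.6 and 47.6 CPM under thiothixene and 54.2, 22.3 and 88.7 CPM under DMSO (-0.02, SE 0.47). DMSO of mouse b and DMSO of mouse c were the extremes for both genes, in opposite order. Manf, a secreted factor of the stress response, averaged 124 ± 7.77 CPM under thiothixene and 156 ± 63.3 CPM under DMSO. Creld2, another secretory pathway protein induced in ER stress, averaged 43.1 ± 4.02 CPM under thiothixene and 51.1 ± 25.2 CPM under DMSO. Dnajb11 (ERdj3) averaged 147 ± 8 CPM under thiothixene and 161 ± 42.5 CPM under DMSO. In these 3 the highest library was DMSO of mouse b and the lowest DMSO of mouse a.

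The 4 disulfide isomerases lay below 0 without passing the test, with a median of -0.15. All 4 lay above 0 with a quality weight per library in limma-voom (median 0.14) and without the 3 libraries that stand apart (median 0.22), and 1 did without DMSO of mouse b (median -0.040). P4hb, the classical protein disulfide isomerase, measured 568, 569 and 577 CPM for mice a, b and c under thiothixene, and 484, 775 and 677 CPM under DMSO (log2 fold change -0.18, SE 0.28). The thiothixene values lay close together, and the DMSO values lay on both sides of them. Pdia3 (ERp57), the isomerase that works with calnexin and calreticulin, averaged 746 ± 66.9 CPM under thiothixene and 874 ± 213 CPM under DMSO. Pdia4 averaged 134 ± 1.97 CPM under thiothixene and 144 ± 23.3 CPM under DMSO. Pdia6, an isomerase also known to act on IRE1, averaged 303 ± 54.0 CPM under thiothixene and 330 ± 158 CPM under DMSO. Their log2 fold changes were -0.23, -0.10 and -0.13. In mouse a the thiothixene value lay above the DMSO value for 3 of the 4 isomerases, and in mouse b for none of the 4.

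Calreticulin and calnexin hold glycoproteins through their sugars while they fold. Calr measured 1276, 1488 and 1425 CPM for mice a, b and c under thiothixene, and 1061, 2290 and 1232 CPM under DMSO (log2 fold change -0.13, SE 0.34). Canx measured 816, 699 and 638 CPM under thiothixene and 608, 518 and 946 CPM under DMSO (0.06, SE 0.31). The DMSO library of mouse b was the highest for Calr and the lowest for Canx. Neither gene passed the test.

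Genes of entry into and exit from the ER did not pass either, with 3 of 4 above 0 and a median of 0.01. Sec61b, a small subunit of the Sec61 channel, had the widest interval. It measured 17.5, 47.1 and 50.1 CPM for mice a, b and c under thiothixene, and 34.1, 96.2 and 9.64 CPM under DMSO (log2 fold change -0.28, SE 0.75). Here the thiothixene library of mouse a also stood below the other 2 of its group. Sec61a1, the channel's pore subunit, averaged 187 ± 24.7 CPM under thiothixene and 187 ± 45.5 CPM under DMSO. Ssr1, of the translocon-associated complex, averaged 212 ± 3.54 CPM under thiothixene and 210 ± 21.7 CPM under DMSO and had the narrowest interval, so a change larger than 0.60 in log2 lies outside it. Sec24d, a cargo adaptor of COPII coats, measured 64.4, 63.2 and 67.8 CPM under thiothixene and 60.7, 41.2 and 65.4 CPM under DMSO (0.22, SE 0.28, and 0.047 without DMSO of mouse b). It was the 1 member higher under thiothixene in all 3 mice, as were 7.49% of tested genes, and its differences were 0.08, 0.59 and 0.05 on log2(CPM + 2).

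Among genes of ER-associated degradation, 4 of 7 tested lay above 0 with a median of 0.01. Herpud1, a membrane organiser of the degradation complex that is induced in ER stress, was the 1 member lower under thiothixene in all 3 mice, as were 6.87% of tested genes. It measured 25, 31.6 and 27.5 CPM for mice a, b and c under thiothixene, and 29.8, 38.6 and 35.2 CPM under DMSO (log2 fold change -0.30, SE 0.28). The groups overlapped, since the thiothixene value of mouse b lay above the DMSO value of mouse a. Syvn1 (the ubiquitin ligase HRD1) averaged 64.3 ± 13.5 CPM under thiothixene and 61.7 ± 21.5 CPM under DMSO, and its adaptor Sel1l 257 ± 24.9 CPM under thiothixene and 211 ± 82.8 CPM under DMSO. Edem1 averaged 371 ± 38.5 CPM under thiothixene and 303 ± 92.0 CPM under DMSO, and Edem2 54.5 ± 2.00 CPM under thiothixene and 54.2 ± 24.1 CPM under DMSO; both act in trimming mannose from failed glycoproteins. Sel1l (0.28) and Edem1 (0.29) had the largest log2 fold changes of the group, and in both the DMSO library of mouse b was far the lowest, at 116 and 204 CPM. Without that library the estimates were -0.007 for Sel1l and 0.071 for Edem1. Derl1 averaged 137 ± 14.1 CPM under thiothixene and 141 ± 41.1 CPM under DMSO, and Derl2 80.0 ± 1.81 CPM under thiothixene and 89.5 ± 17.6 CPM under DMSO. The third Derlin gene, Derl3, had 4, 4 and 0 counts under thiothixene and 13, 8 and 0 counts under DMSO, by mouse a, b and c. A count of 0 allows up to 0.148 CPM in the thiothixene library and 0.128 CPM in the DMSO library, both of mouse c (3 counts, counting error only).

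The sensors and their transcription factor were the 1 group with all 4 tested genes above 0, with a median of 0.28, and none passed the test. With library quality weights 3 lay above 0 (median 0.078), and without the 3 libraries that stand apart 2 did (median 0.005). Ern1 (IRE1, which splices Xbp1 mRNA) measured 79.6, 82.2 and 81.6 CPM for mice a, b and c under thiothixene, and 84.9, 36.9 and 76.6 CPM under DMSO (log2 fold change 0.29, SE 0.35). Eif2ak3 (PERK, the kinase that slows translation) measured 40.1, 41.0 and 36.1 CPM under thiothixene and 43.4, 18.7 and 31.3 CPM under DMSO (0.33, SE 0.35). Atf6, a sensor that is cut to a transcription factor, measured 184, 155 and 145 CPM under thiothixene and 145, 79.6 and 177 CPM under DMSO (0.27, SE 0.34). In each of these 3 genes the DMSO library of mouse b was the lowest of the 6, by a wide margin. Without it the log2 fold changes were 0.007 for Ern1, 0.066 for Eif2ak3 and 0.001 for Atf6. Xbp1 measured 120, 123 and 123 CPM under thiothixene and 103, 141 and 105 CPM under DMSO (0.07, SE 0.27). On CPM without TMM scaling its groups did not overlap, at 125, 124 and 124 under thiothixene and 108, 120 and 111 under DMSO. It was the 1 member of 31 for which this held, beside 3.95% of tested genes, and 0 members lay lower without overlap, beside 2.47%. Counts per gene do not separate spliced from unspliced Xbp1. Within mice the median difference of the 4 genes, on log2(CPM + 2), was 0.06 in mouse a, 1.00 in mouse b and 0.14 in mouse c.

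Over all 31 members that median difference, thiothixene minus DMSO, was 0.19 in mouse a, -0.24 in mouse b and 0.02 in mouse c. The difference was positive for 20, 12 and 16 members. All tested genes had medians of -0.02, 0.01 and 0.04, with 7120, 7515 and 7709 of 14856 above 0. For the members, the 3 mice thus did not share a direction. In mouse a the chaperones stood at a median of 0.30 and the isomerases at 0.21, while in mouse b the same groups stood at -0.16 and -0.40 and in mouse c at -0.33 and -0.26.

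**Figure D3:**
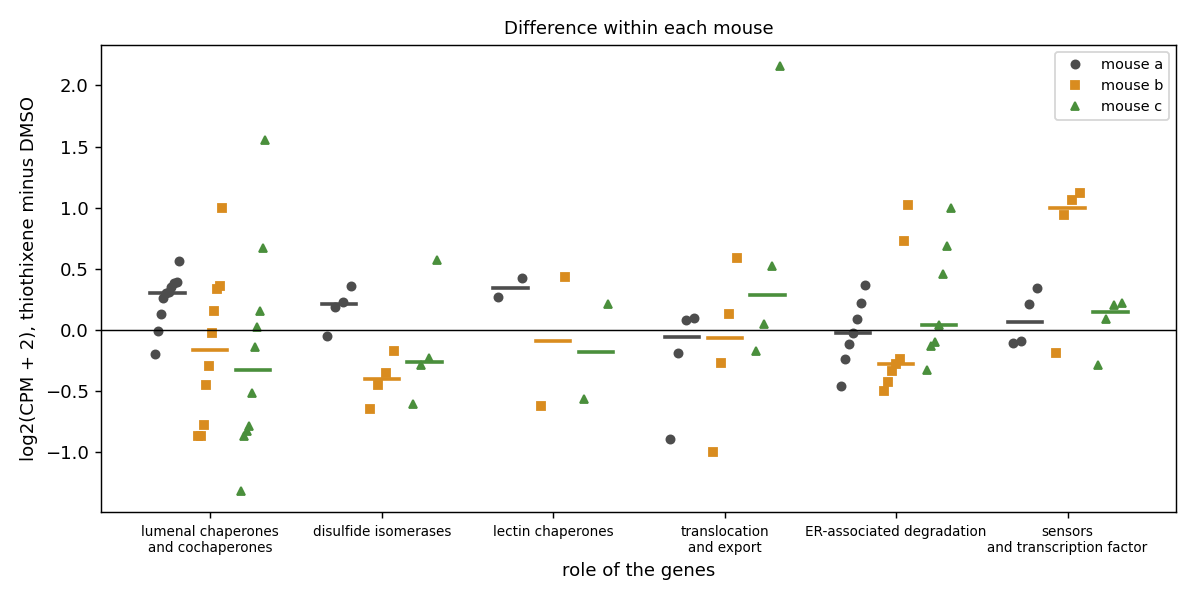
Difference on log2(CPM + 2), thiothixene minus DMSO, for each tested ER gene in mouse a (circles), b (squares) and c (triangles) by role, with the median as a bar. The chaperones have medians of 0.30, -0.16 and -0.33 in mice a, b and c, and the sensors 0.06, 1.00 and 0.14.

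Replicate spread differed more than the means did. The SD of log2(CPM + 2) was larger under DMSO for 30 of 31 members (96.8%), Hyou1 being the exception, and for 84.2% of all tested genes. The median SD of the members was 0.14 under thiothixene and 0.48 under DMSO, and that of all tested genes 0.23 under thiothixene and 0.48 under DMSO. Both the highest and the lowest library were DMSO libraries in 25 of 31 members (80.6%) and in 50.9% of tested genes. DMSO of mouse b was the highest library for 15 members and the lowest for 11, and DMSO of mouse c the highest for 9 and the lowest for 9. DMSO of mouse a was the lowest for 10. Summed CPM of the members ran from 8360 to 8744 under thiothixene and from 7222 to 9834 under DMSO.

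**Figure D4:**
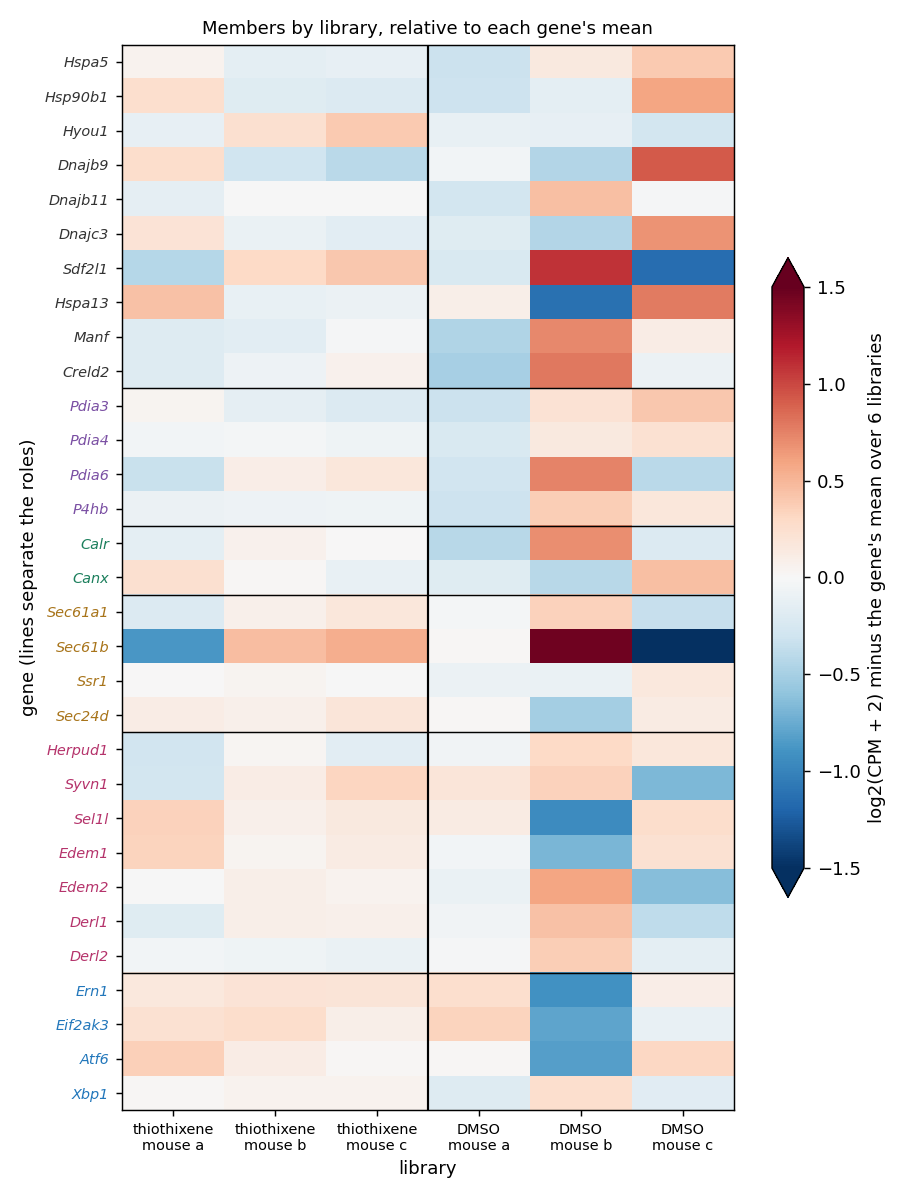
Log2(CPM + 2) of each tested ER gene in each library minus the gene's mean over the 6 libraries, thiothixene left and DMSO right, with lines between roles. The strongest colours stand under DMSO in mice b and c and are often opposite for the same gene, as in Sdf2l1, Hspa13 and Sec61b.

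DMSO of mouse b and DMSO of mouse c split the ER genes by their length and base composition. Sec61b was higher in mouse b than in mouse c by 3.08 on log2(CPM + 2), and Hspa13 differed by -1.90. Over the 31 members this difference had a Spearman correlation of -0.52 with exon length and 0.71 with GC content, and over 14565 tested genes with both values -0.38 and 0.61. These are across genes of the same 2 libraries, and length and GC content were themselves related (-0.39 in the members). The 15 members highest in DMSO of mouse b had a median exon length of 3248 bases and a GC content of 53.0%. The 11 lowest there, which include Ern1, Eif2ak3, Atf6, Sel1l, Edem1 and Hspa13, had 6453 bases and 46.0%. The part of length and GC content in the fold changes was not tested.

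**Figure D5:**
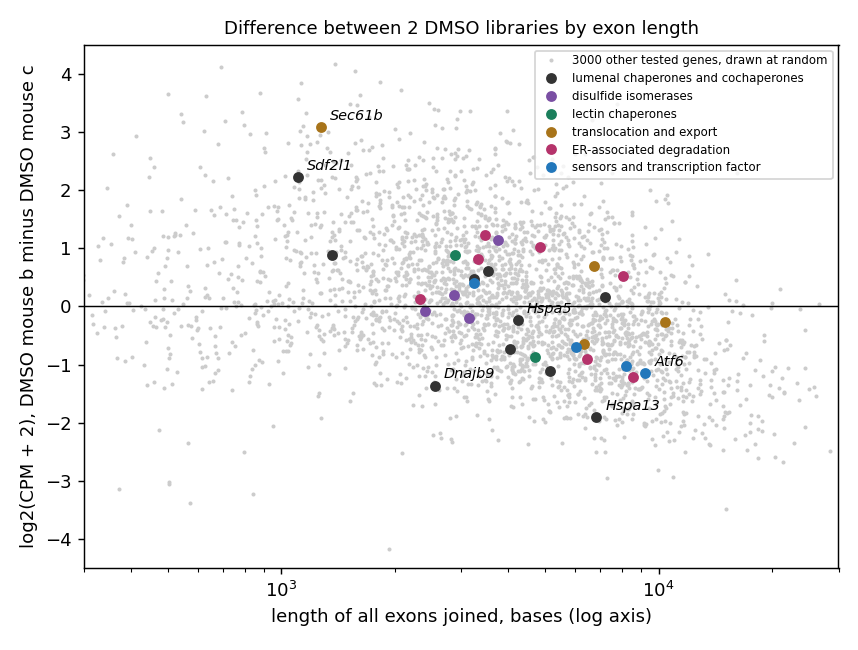
Difference on log2(CPM + 2) between DMSO of mouse b and DMSO of mouse c (vertical) by length of all exons joined in bases (horizontal, log axis), for the ER genes by role and for other tested genes (grey, a random draw). Some short genes such as Sec61b and Sdf2l1 lie high and some long ones such as Hspa13 and Atf6 low, with a Spearman correlation of -0.52 over the 31 members. Others do not follow this, such as Dnajb9 (2549 bases, -1.36) and Sec61a1 (6732 bases, 0.70).

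Of the 8 tested genes with an ERSE in the promoter window, 2 lay above 0 and 6 below, with a median of -0.13 and a range of -0.24 to 0.06. That direction depended on the libraries. All 8 lay above 0 with library quality weights (median 0.12) and without the 3 libraries that stand apart (median 0.17), and 4 did without DMSO of mouse b. Of 17 genes with a window and no ERSE, 8 lay above 0, with a median of -0.05. For 6 genes without a promoter entry, 3 lay above 0, with a median of -0.01. None of these genes passed the test with all 6 libraries.

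Without the 3 libraries that stand apart, a setting chosen with earlier results of these data known, the calls differed. This leaves thiothixene of mice b and c against the lone DMSO library of mouse a, so treatment and mouse cannot be told apart, and the lone library is assumed to vary like the others. In edgeR, 7 of 32 tested members were then called higher, 21.9% against 4.02% of tested genes, and 0 lower, against 2.97%. They were Sdf2l1 (log2 fold change 0.60, SE 0.12, adjusted p 0.00337), Calr (0.46, adjusted p 0.00276), Pdia6 (0.43, adjusted p 0.00798), Hyou1 (0.44, adjusted p 0.0124), Sec61b (0.52), Creld2 (0.52) and Manf (0.38, adjusted p 0.0496). Hspa5 stood at 0.20 and Xbp1 at 0.26 and did not pass. Of the 7, all but Hyou1 are genes whose highest level over all 6 libraries was in DMSO of mouse b, which this comparison leaves out. Sdf2l1, for instance, measured 174 CPM there, above the 100 and 108 CPM of the thiothixene libraries kept. The lone DMSO library kept, that of mouse a, had the lowest summed CPM of the members, at 7222. It was the lowest of the 6 libraries for Calr, Creld2 and Manf. Limma-voom with a quality weight per library, chosen in the same way, kept all 6 libraries and called 0 members in either direction (background 0.0606% higher and 0.108% lower).

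The wider ER pathway, 68 further genes in 5 lists, gave the same count of 0 called among 67 tested. Of these 35 lay above 0, with a median log2 fold change of 0.02. Oligosaccharyl transfer and translocon genes had 3 of 13 above 0 (median -0.17), with Rpn2 at 321 ± 28.9 CPM under thiothixene and 367 ± 151 CPM under DMSO, and Ssr3 at 302 ± 73.0 CPM under thiothixene and 309 ± 117 CPM under DMSO. Other folding and oxidation genes had 10 of 16 above 0 (median 0.06), with log2 fold changes of -0.32 for the chaperone gene Erp29 and 0.13 for Uggt1, the sensor of glycoprotein folding. Further genes of degradation had 6 of 13 above 0 (median -0.03), with the extracting ATPase gene Vcp at -0.22. COPII and KDEL receptor genes had 7 of 12 above 0 (median 0.05), with Sec31a at 0.10 and Sec24c at 0.26.

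In the list of other sensors, site proteases and the PERK arm, 9 of 13 lay above 0 (median 0.19). Atf3, a stress transcription factor that PERK signalling can induce, measured 282, 276 and 283 CPM for mice a, b and c under thiothixene, and 171, 231 and 210 CPM under DMSO. Its groups did not overlap, yet it did not pass the test (log2 fold change 0.46, SE 0.26, adjusted p 1). Atf4, the main transcription factor downstream of PERK, measured 98.7, 255 and 250 CPM under thiothixene and 168, 283 and 72.2 CPM under DMSO (0.21, SE 0.54). Ddit3, which encodes CHOP, was at -0.39 (SE 0.49) and was picked after its value was seen. It measured 26.7, 27.5 and 29.5 CPM under thiothixene and 24.1, 68.0 and 17.9 CPM under DMSO. Only the DMSO library of mouse b lay above the thiothixene values, and in mice a and c the thiothixene value was the higher. Over the 67 genes, 4 had all thiothixene levels above all DMSO levels, beside 3.88% of tested genes. All levels lay below for 0 of the 67, beside 2.77% of tested genes. Besides Atf3 the 4 were Txndc11 (0.33), Sel1l3 (0.63) and Wfs1 (0.64), named after their values were seen.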

How the data were processed

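Macrophages from 3 mice, each treated with 2 µM thiothixene or DMSO, gave 6 libraries. The treatment label and the mouse letter of each title placed them. The authors deposited raw counts, whole numbers for each gene, with 5 rows per library that name no gene. These rows held reads outside genes (43.065% to 44.349% of all counts), reads not aligned (1.85% to 4.978%) and others, and stayed out of library sizes and tests. The tools named per the submitters' processing notes, without their roles, are STAR 2.7.11b, Trim Galore 0.6.10, FastQC 0.11.8 and DESeq2 1.44, with the build mm10. Which program counted reads, with which strand setting and annotation release, is not given in the sources used here. Of the 32 genes, 14 overlap another annotated gene, 12 of them on the other strand, and such reads could not be told apart where counting ignored strand.

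Identifiers were matched without version to GENCODE on GRCm38, which gave names, exon lengths and GC content (52073 matched, and the 4618 others held 0.4% of gene counts). The test was edgeR 4.0.16 in R 4.3.3, a robust quasi-likelihood fit of treatment alone after TMM scaling and filterByExpr, with p adjusted by Benjamini-Hochberg over 14856 genes at 0.05. Intervals are 95%. CPM are TMM-scaled, and log2 differences use CPM + 2. Replicates are separate mice per the labels, and the same mice gave both groups, so the letters pair the libraries. Their deviations from group means correlated at -0.131, 0.318 and -0.301 for mice a, b and c. Pairs from different mice correlated at -0.411 to 0.486, the highest being thiothixene of mouse a with DMSO of mouse c. Same-mouse libraries were thus not more alike than others. Alternatives were the mouse as a block, size factors by RLE, no filter or one at 1 CPM in 3 libraries, limma-voom (limma 3.58.1) with and without quality weights, DESeq2 1.42.0, and leaving out libraries. All 32 genes are named. Other lists name the genes past the threshold or, with none, the 2 of highest mean CPM. A gene that this rule names is not reported here. Members and lists were chosen with earlier results of these data known.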

Additional observations from a re-analysis of the deposited data

How the results depend on the processing

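In each setting 0 members were called, but for the one without the 3 libraries that stand apart, where 7 were higher (1105 genes called). Genes called over all were 1 without a filter, 2 in DESeq2 and 25 with quality weights, of which 0 were members, and 0 in the other settings. Under a replicate block for mouse 0 genes were called, 16 members lay above 0 and their median was 0.015, and the block changed no call. Members above 0 numbered 26 with quality weights (median 0.118), 24 without the 3 libraries (median 0.152), and 8 to 19 when 1 library was left out (median -0.203 without DMSO of mouse a to 0.024 without DMSO of mouse b). All tested genes had medians of 0.016 with quality weights and 0.008 without the 3 libraries. Theirs was -0.037 without DMSO of mouse a and 0.016 without DMSO of mouse b. Without TMM scaling the groups of 1 member, Xbp1, did not overlap, beside 3.95% of tested genes in that direction. Of the members' values under other settings, 83 changed sign, 1 (Hyou1) gained a call without changing sign and 350 did neither. The cause was not tested. Log2 fold changes with the opposite sign were, with the replicate block, Sdf2l1 0.18, Hspa13 0.18 and Sec61b 0.015; in limma-voom, Sdf2l1 0.24, Hspa13 0.11, Sec61b 0.26 and Derl1 0.009; without a filter, Sdf2l1 0.000, Hspa13 0.003 and Derl1 0.005; in DESeq2, Sec61a1 -0.007 and Edem2 -0.001; with RLE size factors, Sec61a1 -0.013 and Edem2 -0.006; and with the stricter filter, Sec61a1 -0.003. With quality weights they were Hspa5 0.10, Hsp90b1 0.064, Dnajb11 0.19, Dnajc3 0.026, Sdf2l1 0.53, Manf 0.21, Creld2 0.37, Pdia3 0.070, Pdia4 0.13, Pdia6 0.32, P4hb 0.15, Calr 0.36, Sec61b 0.49, Derl1 0.13 and Eif2ak3 -0.027. Without the 3 libraries they were Hspa5 0.20, Hsp90b1 0.13, Dnajb11 0.28, Dnajc3 0.058, Sdf2l1 0.60, Manf 0.38, Creld2 0.52, Pdia3 0.15, Pdia4 0.19, Pdia6 0.43, P4hb 0.25, Calr 0.46, Sec61b 0.52, Sel1l -0.004, Derl1 0.15, Ern1 -0.046 and Eif2ak3 -0.16. When 1 library was left out, the lowest and highest log2 fold changes were Calr -0.33 to 0.29, Canx -0.12 to 0.35, Creld2 -0.49 to 0.23, Derl1 -0.20 to 0.22, Derl2 -0.27 to 0.008, Dnajb11 -0.28 to 0.096, Dnajb9 -0.66 to 0.12, Dnajc3 -0.32 to 0.30, Edem2 -0.24 to 0.41, Hsp90b1 -0.29 to 0.20, Hspa13 -0.39 to 0.51, Hspa5 -0.34 to 0.000, Manf -0.57 to 0.024, Pdia6 -0.33 to 0.34, Sdf2l1 -0.43 to 0.78, Sec61a1 -0.15 to 0.20, Sec61b -0.76 to 0.81, Sel1l -0.007 to 0.51, Ssr1 -0.029 to 0.11, Syvn1 -0.20 to 0.27 and Xbp1 -0.004 to 0.23, and each of these ends came without a DMSO library. The DMSO library of mouse b, the thinnest with 10472349 counts, is 1 of 3 in its group, and the narrowest 95% interval of a member, that of Ssr1, still runs from -0.56 to 0.60 in log2.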
